A study of Bos taurus with 17 samples.

Results

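Whole milk of Holstein cows was compared between 5 cows aged 3 years (H5 to H9) and 4 cows aged 2 years (H1 to H4), which make up 9 of the 17 small RNA libraries of the series. The other 8 libraries came from Normande cows and entered only 1 alternative fit, which estimated the spread over all 17 libraries. All 9 Holstein cows were healthy, in their first lactation and at about 2 months of milk production, and each gave 1 library from unfractionated milk, so that fat, whey and cells were sequenced together. The ages came from the study's description of the animals, and the members were the microRNA entries of the raw count table, of which 2038 of 2297 had at least 1 read in Holstein milk. Milk of an age group was collected at one time, so age and collection session cannot be told apart, and both ages share the breed and the parity.

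MicroRNAs are short RNAs that guide Argonaute proteins to complementary messenger RNAs and lower their stability or translation. Milk carries many of them, mostly released by the secretory epithelium in vesicles and fat globules, with a further part inside leukocytes and shed epithelial cells. A mature microRNA is named for the arm of its hairpin precursor (5p or 3p), and members of a family share the seed, the short stretch that pairs with targets. Entries named bta-miR are annotated in cattle in miRBase, entries named Rum are taken from the ruminant database RumimiR, and entries named bta-chr are microRNAs that the study predicted from the reads.

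The libraries of cows aged 3 years held 6313331 to 21108285 reads, and those of cows aged 2 years 440439 to 8301261 reads, the shallowest being H3 (440439) and H4 (3637802). A single read was worth 0.0474 to 0.158 reads per 1000000 reads of the library (RPM) at 3 years and 0.12 to 2.27 RPM at 2 years. The difference in depth (on the log10 scale) had an exact two-sided permutation p of 0.0476 and an adjusted p of 0.524 over the 11 library measures tested. With 5 against 4 libraries the smallest two-sided p that this test can give is 0.0159. In bulk milk, fewer cells of a type and less RNA per cell cannot be told apart.

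No microRNA passed the test between 3 and 2 years at an adjusted p under 0.05 in edgeR's quasi-likelihood test, in which 449 entries passed the minimum on normalized counts and 0 (0%) were called. At an unadjusted p under 0.05 the same test gave 10 entries higher at 3 years (2.23% of those tested) and 22 lower (4.90%), against 13 higher and 15 lower (13 of them predicted) when library totals replaced the TMM factors. The minimum was passed by 27 of the 449 entries only through cows aged 3 years and by 21 only through cows aged 2 years, and such entries could enter only because they were high at that age. The smallest adjusted p was 0.247. With voom and limma 0 entries were called, with voom and quality weights 1, and with DESeq2 6 (1 higher and 5 lower). The median standard error of a log2 fold change was 0.45, and for 101 of the 449 entries the 95% interval lay within a 2-fold change either way. The age groups did not overlap in 5 entries with all 3-year values above the 2-year values (1.11%) and in 2 entries with all 3-year values below (0.445%). Among these, Rum-bta-01407 and bta-chr22_21344_mt-3p passed the minimum only through the age at which they were high.

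The annotated and the predicted entries were spread differently around 0. Of the 332 annotated entries, 189 had a positive log2 fold change (3 years minus 2 years) and 143 a negative one, with a median of 0.07. Of the 117 predicted entries, 17 had a positive value and 100 a negative one, with a median of -0.68, while the median over all 449 was -0.07. That direction belongs to the entries that passed the minimum. With no filter, 354 of all 931 predicted entries with a read had a negative value and the median was 0.76, and 360 of those 931 had reads at 3 years only, so that their fitted values depend on the prior count. Predicted entries made up 21 of the 22 with an unadjusted p under 0.05 on the lower side and 1 of the 10 on the higher side. These entries moved together from cow to cow, so their count is not a count of independent observations.

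**Figure D1:**
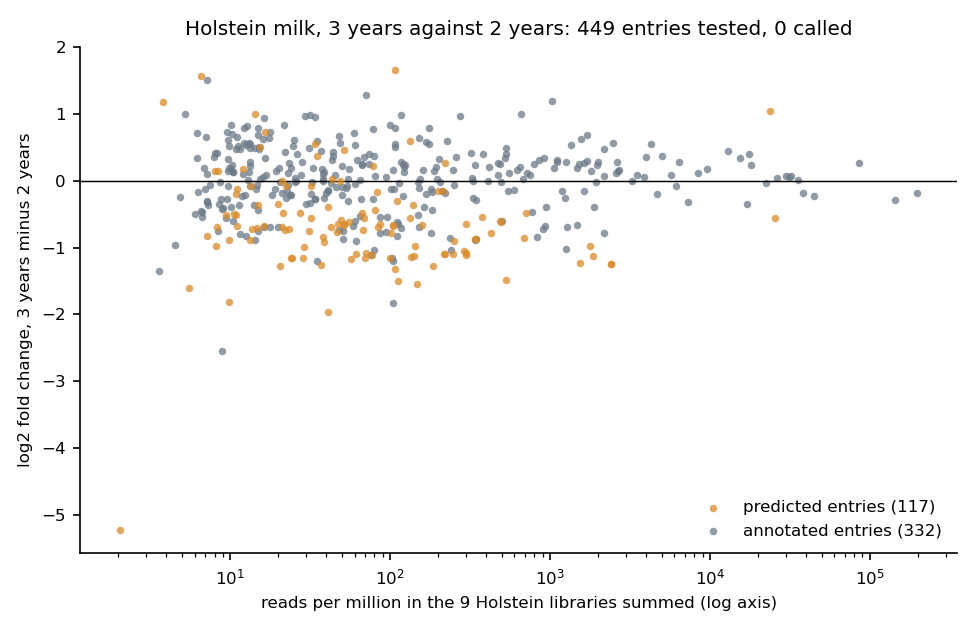
Each point is 1 of the 449 entries tested, placed by its RPM in the 9 Holstein libraries summed (x, log axis) and by its log2 fold change, 3 years minus 2 years (y), in orange for the 117 predicted and in grey for the 332 annotated entries. Annotated entries scatter around 0 (median 0.07), most predicted entries lie below it (median -0.68), and the lowest point is bta-chr22_21344_mt-3p at -5.23.

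None of the abundant microRNAs of Holstein milk was called between 3 and 2 years. The 18 entries above 10000 RPM in the summed reads had log2 fold changes with a median of 0.05, 11 of them positive and 7 negative, and the smallest adjusted p among them in edgeR was 0.628. For 13 of the 18 the 95% interval lay within a 2-fold change, and 9 of the 10 entries with the highest mean RPM were the same at both ages. All values by cow that follow are RPM normalized with trimmed mean of M values (TMM) factors, and are given in the order of the cow numbers.

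The most abundant entry was bta-miR-148a-3p, which represses the DNA methyltransferase DNMT1 in mammals and is the dominant microRNA of milk in several species. It was at 181036, 286873, 198558, 140965 and 193995 RPM in the milk of cows aged 3 years, and at 301651, 152955, 156864 and 294991 RPM in that of cows aged 2 years. The groups overlap over almost their whole range, with H1, H4 and H6 high, and the log2 fold change was -0.18 ± 0.27 (SE), a 95% interval of 0.588- to 1.33-fold. The next, bta-miR-30a-5p, averaged 135570 ± 31331 RPM at 3 years and 165491 ± 54469 RPM at 2 years (SD, n = 5 and 4), with a log2 fold change of -0.29 ± 0.26 (SE). Then bta-miR-22-3p averaged 85928 ± 15542 RPM at 3 years and 71361 ± 8377 RPM at 2 years, with a log2 fold change of 0.27 ± 0.20 (SE).

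The tightest value belonged to bta-miR-21-5p, which is induced in proliferating and inflamed tissues. It was at 35076, 33017, 34131, 29331 and 27143 RPM at 3 years, and at 32262, 29251, 28041 and 31474 RPM at 2 years. The coefficient of variation among cows was 10.6% at 3 years and 6.45% at 2 years, and the 95% interval of the age difference was 0.792- to 1.39-fold. At the other end of the annotated ones, bta-miR-141-3p, an epithelial microRNA of the miR-200 group that targets the mesenchymal factors ZEB1 and ZEB2, varied more among the older cows. It had 52043, 39054, 13719, 11986 and 21023 RPM at 3 years (coefficient of variation 63.1%), and 28071, 28720, 21525 and 26711 RPM at 2 years (12.4%). The younger cows lie inside the range of the older ones, and the log2 fold change was 0.07 ± 0.40 (SE).

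The other abundant microRNAs had log2 fold changes between -0.34 for bta-miR-191-5p and 0.44 for bta-miR-660-5p. The smallest p of the 18 was that of bta-miR-660-5p, at 12163, 8952, 17680, 15370 and 13512 RPM at 3 years against 11628, 8228, 9671 and 10298 RPM at 2 years. Only H6 of the older cows falls among the younger ones, and its edgeR adjusted p was 0.628. bta-miR-92a-3p, the most abundant product of the miR-17 to miR-92 clusters, averaged 18584 ± 3235 RPM at 3 years and 14014 ± 3423 RPM at 2 years (SD, n = 5 and 4), a log2 fold change of 0.41 ± 0.24 (SE). bta-miR-375-3p, which is best known from pancreatic islets and from epithelia, averaged 18577 ± 3507 RPM at 3 years and 15717 ± 7620 RPM at 2 years, where H3 stood low at 5263 RPM.

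**Figure D2:**
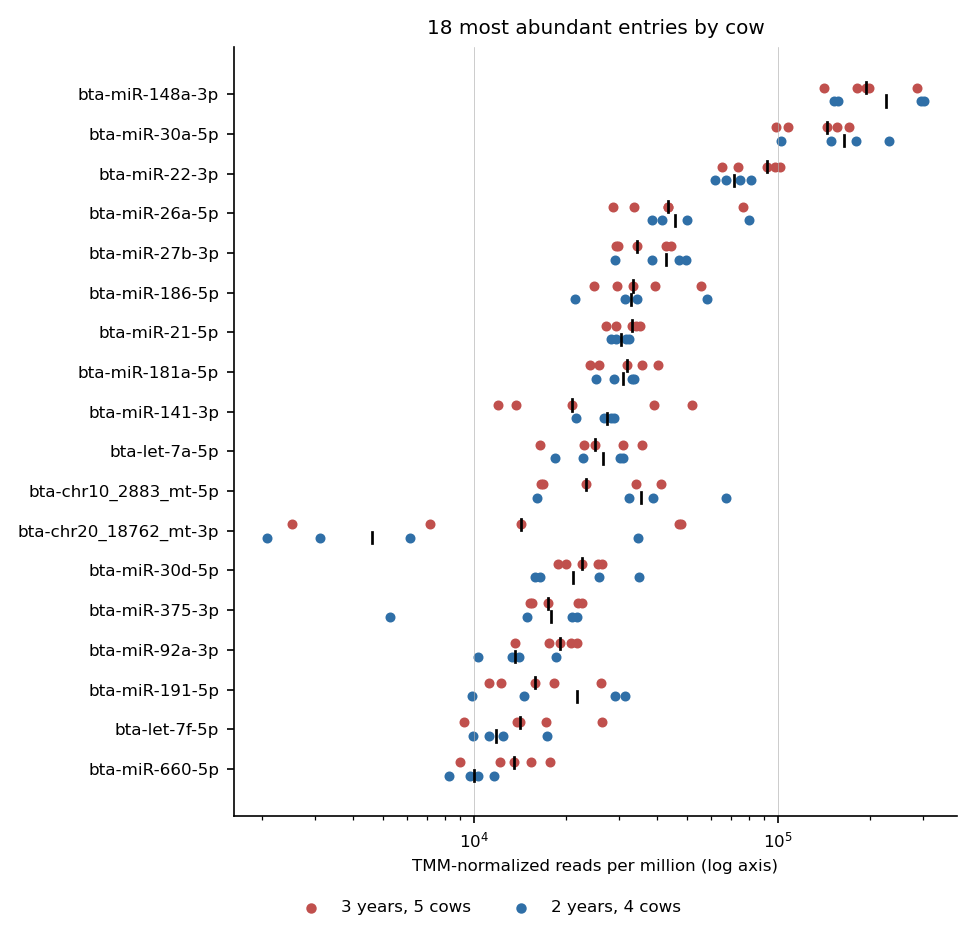
TMM-normalized RPM (x, log axis) of the 18 most abundant entries in each cow, with the 5 cows aged 3 years in red above the 4 cows aged 2 years in blue; black bars mark group medians. The age groups overlap in every one of the 18 rows, and bta-chr20_18762_mt-3p spreads most, with H7 and H8 highest at 48009 and 47255 RPM.

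Among the major entries 2 are predicted, and in both the ages overlapped while single cows stood far apart. bta-chr20_18762_mt-3p was at 7120, 2520, 48009, 47255 and 14253 RPM at 3 years, and at 2073, 34582, 6139 and 3098 RPM at 2 years. H7, H8 and H2 were high and the others 14253 RPM or less, and the log2 fold change of 1.05 ± 0.92 (SE) has a 95% interval of 0.523- to 8.24-fold. bta-chr10_2883_mt-5p was at 23276, 41002, 34003, 16518 and 16823 RPM at 3 years, and at 38603, 16090, 67358 and 32187 RPM at 2 years. Its log2 fold change was -0.55 ± 0.39 (SE), with H3 the highest and H2 the lowest of the 9 cows, both aged 2 years.

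None of the entries on the higher side at 3 years was called, so the 10 with the smallest p are given as a ranking. The first was bta-miR-11978-5p, a bovine miRBase entry. It was at 49.3, 69, 79.5, 108 and 102 RPM in the milk of cows aged 3 years, and at 44.1, 39, 22.4 and 26.8 RPM in that of cows aged 2 years. All older cows lie above all younger ones, by a narrow gap between H5 and H1, and the log2 fold change was 1.28 ± 0.37 (SE), 2.43-fold, with an edgeR adjusted p of 0.363. With DESeq2 its adjusted p was 0.0428. The second was bta-miR-2419-5p, at 1220, 1102, 545, 1446 and 1068 RPM at 3 years against 700, 508, 289 and 385 RPM at 2 years. H7 is the one older cow that falls below a younger cow, H1, and the log2 fold change was 1.19 ± 0.36 (SE).

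The third, bta-miR-143-3p, is made from 1 transcript with miR-145 in smooth muscle and stromal cells. It was at 655, 937, 996, 659 and 437 RPM at 3 years, and at 371, 474, 186 and 443 RPM at 2 years. H9 alone falls within the range of the younger cows, and the log2 fold change was 0.99 ± 0.36 (SE) with an edgeR adjusted p of 0.564. Its partner bta-miR-145-5p did not pass the minimum for the test, at 3.93 ± 3.25 RPM at 3 years and 4.38 ± 3.13 RPM at 2 years (SD, n = 5 and 4).

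Separate ranges were also seen for bta-miR-1307-3p and bta-miR-340-3p. bta-miR-1307-3p was at 72.4, 61.5, 78.7, 104 and 105 RPM at 3 years, and at 54, 54.2, 42.9 and 45.4 RPM at 2 years, a log2 fold change of 0.77 ± 0.31 (SE). bta-miR-340-3p was at 59.2, 80, 67.4, 60.5 and 55.9 RPM at 3 years, and at 50.1, 43, 33.5 and 29.1 RPM at 2 years, a log2 fold change of 0.72 ± 0.31 (SE). Both had an edgeR adjusted p of 0.606. The remaining entries with no overlap on the higher side were bta-miR-345-3p and Rum-bta-01407, with log2 fold changes of 0.60 and 0.79, named after their values were seen. Rum-bta-01407 passed the minimum only through cows aged 3 years, so it was admitted by the age at which it was high.

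The rest of the ranking was of low abundance or uneven among cows. bta-miR-181c-5p, a member of the miR-181 family that tunes T cell receptor signalling in mice, was at 161, 64.9, 113, 85.3 and 68.3 RPM at 3 years, against 48.2, 73.6, 39.1 and 58.2 RPM at 2 years. H2, aged 2 years, lies above H6 and H9, and the log2 fold change was 0.84 ± 0.38 (SE). bta-miR-499-5p, which sits in an intron of the myosin gene MYH7B in mammals and is best known from heart and slow muscle, averaged 16.7 ± 4.1 RPM at 3 years and 8.24 ± 3.67 RPM at 2 years (SD, n = 5 and 4). The predicted entry bta-chr22_20622_mt-5p had the largest log2 fold change of all entries, 1.66 ± 0.66 (SE), with 30.5 to 266 RPM at 3 years and 19 to 73.8 RPM at 2 years. The last 2, Rum-bta-01105 and Rum-bta-02157, had log2 fold changes of 0.97 and 1.52, and Rum-bta-02157 had 0 reads in H3, where 3 reads would be 5.59 TMM-normalized RPM. Both bta-miR-499-5p and Rum-bta-02157 passed the minimum only through cows aged 3 years, the age at which they were high. Their p-values are therefore no independent support.

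**Figure D3:**
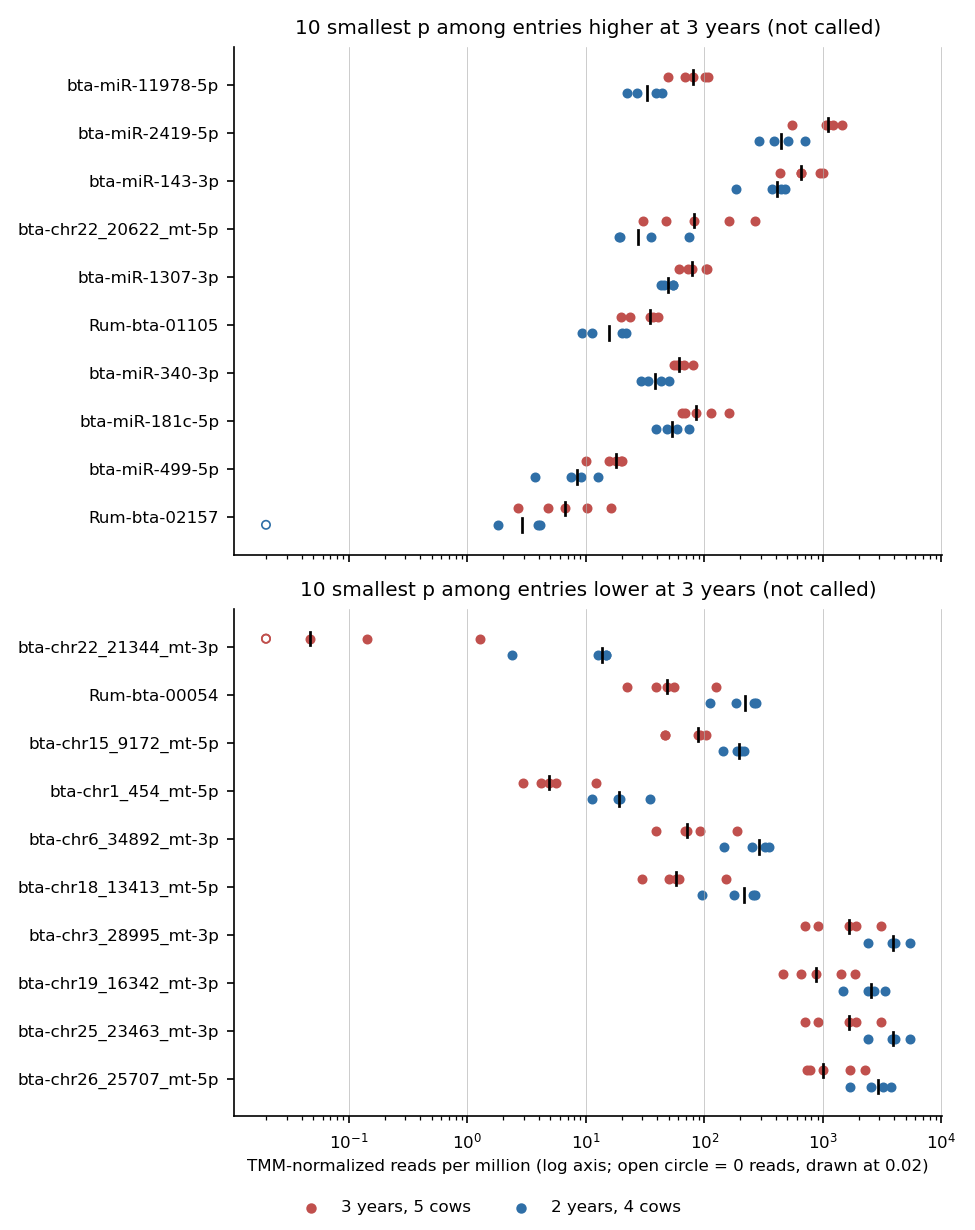
TMM-normalized RPM (x, log axis) by cow for the 10 entries with the smallest p on the higher side (top) and on the lower side (bottom) of the age comparison, with the 5 cows aged 3 years in red above the 4 cows aged 2 years in blue; black bars mark group medians and open circles 0 reads. No entry shown was called (smallest adjusted p 0.247), and 3 entries of the top panel and 2 of the bottom panel have age groups that do not overlap.

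On the lower side, 9 of the 10 ranked entries are predicted. The first, bta-chr22_21344_mt-3p, was almost absent from the milk of the older cows, with 0.0469, 0, 1.29, 0 and 0.141 RPM at 3 years against 14.7, 2.36, 14.9 and 12.7 RPM at 2 years. All older cows lie below all younger ones, and the log2 fold change was -5.23 ± 1.1 (SE), with an edgeR adjusted p of 0.247. It had 1, 0, 13, 0 and 1 reads at 3 years, and 86, 22, 8 and 39 reads at 2 years. It passed the minimum on normalized counts through H1 and H3 alone, the 8 reads of H3 being scaled up most, so it was admitted by the age at which it was high and its p-values are no independent support. Its adjusted p was 0.00168 with DESeq2, 0.038 with voom and quality weights, and 0.0035 in edgeR without H7, the older cow with the most reads of it.

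The second, Rum-bta-00054, is annotated in cattle in RumimiR only. It was at 126, 38.8, 22.1, 54.9 and 48.8 RPM at 3 years, and at 112, 273, 183 and 261 RPM at 2 years. H5, aged 3 years, and H1, aged 2 years, lie at about the same level, and the other older cows lie below every younger cow. The log2 fold change was -1.84 ± 0.49 (SE), with an adjusted p of 0.363 in edgeR and 0.0156 in DESeq2.

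The third, bta-chr15_9172_mt-5p, was at 103, 46.8, 46.8, 88.7 and 91.9 RPM at 3 years, and at 144, 203, 190 and 215 RPM at 2 years. This is the other entry whose ranges do not overlap on the lower side, with a log2 fold change of -1.32 ± 0.35 (SE) and an adjusted p of 0.363 in edgeR and 0.0165 in DESeq2. bta-chr6_34892_mt-3p was at 189, 70.9, 39.3, 92.1 and 68 RPM at 3 years, and at 146, 353, 322 and 253 RPM at 2 years. Again H5 was the highest of the older and H1 the lowest of the younger cows, so that the groups overlap through these cows alone. The log2 fold change was -1.54 ± 0.46 (SE), and those of bta-chr1_454_mt-5p and bta-chr18_13413_mt-5p were -1.81 ± 0.51 and -1.50 ± 0.49 (SE). In DESeq2 the adjusted p was 0.0428 for bta-chr6_34892_mt-3p and 0.0454 for bta-chr1_454_mt-5p. bta-chr1_454_mt-5p passed the minimum only through cows aged 2 years, the age at which it was high. Its p-values are therefore no independent support.

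The other ranked entries were more abundant and differed less. bta-chr3_28995_mt-3p was at 3116, 1657, 910, 1897 and 704 RPM at 3 years, and at 2395, 4033, 3841 and 5442 RPM at 2 years, with a log2 fold change of -1.25 ± 0.41 (SE). bta-chr25_23463_mt-3p had nearly the same counts in every library, so the pair may be 1 RNA counted under both names. In all, 27 of the entries tested fell into 12 such sets, within 10% or 5 reads in each library, and with each set counted once 20 of 434 entries were lower at an unadjusted p under 0.05. bta-chr19_16342_mt-3p and bta-chr26_25707_mt-5p averaged 1055 ± 575 and 1289 ± 668 RPM at 3 years, against 2468 ± 778 and 2820 ± 900 RPM at 2 years (SD, n = 5 and 4), with log2 fold changes of -1.23 ± 0.41 and -1.13 ± 0.39 (SE).

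The predicted entries shared an order of the cows that cut across age. H5 was the highest of the 5 older cows in 70 of the 117 predicted entries tested, and in 19 of the 21 with an unadjusted p under 0.05 on the lower side. H1 was the lowest of the 4 younger cows in 83 of the 117 and in 19 of the 21. The 21 were picked by the age test in these same cows, so their counts add no independent support. In the 332 annotated entries, H5 was the highest of the older cows in 59 and H1 the lowest of the younger cows in 45.

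The same order appears in a level per cow. The median over the 117 predicted entries of the log2 deviation from the mean of the 9 libraries was 0.59, -1.01, -0.89, 0.17 and -0.19 in H5 to H9, and -0.47, 1.20, 0.65 and 0.12 in H1 to H4. H2, H3 and H5 stand high and H6, H7 and H1 low, so the age groups overlap. Over the 332 annotated entries the same median ranged from 0.01 to 0.13 at 3 years and from -0.32 to 0.23 at 2 years.

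As shares of all reads, predicted entries made up 5.83%, 4.73%, 8.82%, 9.96% and 4.80% at 3 years, and 4.71%, 10.1%, 13% and 5.81% at 2 years. The difference between the ages was within the spread among cows (exact two-sided permutation p = 0.508, adjusted p = 0.917). The shares were mostly made of the pair bta-chr10_2883_mt-5p and bta-chr20_18762_mt-3p, which took 3.07% to 7.83% of reads at 3 years and 2.97% to 8.95% at 2 years. Without that pair, a choice made after seeing the data and given without a test, predicted entries took 2.76%, 1.08%, 0.989%, 2.29% and 1.32% at 3 years against 1.46%, 4.44%, 4.01% and 2.84% at 2 years.

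**Figure D4:**
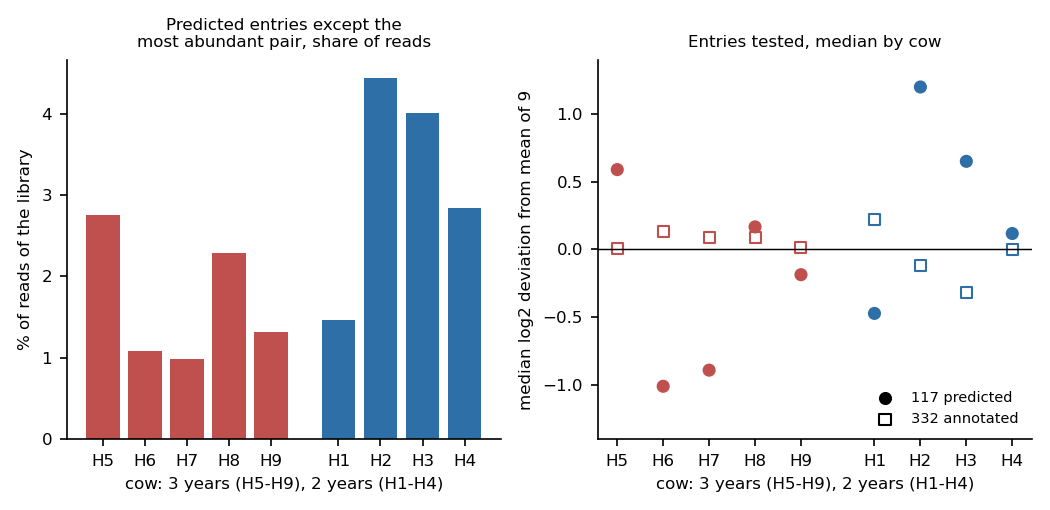
Left, the percentage of reads in predicted entries other than the most abundant pair, by cow; right, the median log2 deviation from the mean of the 9 libraries over the 117 predicted (filled circles) and the 332 annotated entries tested (open squares). Red is 3 years and blue 2 years: H5 lies among the younger cows and H1 among the older cows for the predicted entries, whose medians run from -1.01 to 1.20, while the annotated medians stay between -0.32 and 0.23.

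The counts at an unadjusted p under 0.05 differed between fits that left out cows or handled depth otherwise, and depth moved with age. The part of depth was not tested. With libraries thinned to the shallowest 10 entries were higher and 33 lower (26 of them predicted), and the median of the predicted entries was -0.69. With the log10 library total as a covariate 1 entry was higher and 31 lower, and the median of the predicted entries was -0.90. Without H1 or H5, 46 or 44 entries were lower at 3 years at an unadjusted p under 0.05 (35 and 36 of them predicted). Without H2 or H6 they were 18 or 19 (13 and 12 predicted), and without H7 or H9 15 (14 predicted in both). Without H2 the median of the predicted entries was -0.33. On the higher side the count of 10 became 18 without H5, 4 without H3 or H8, and 5 without H4 or H7. Without H3 and H4 together, the shallowest libraries, there were 0 higher and 8 lower, and the median of the predicted entries was -0.74.

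Families of annotated microRNAs showed no member called, and are described by their counts and medians. For comparison, the median was -0.07 over all 449 entries and 0.07 over the 332 annotated entries. Of those 332, 189 had a positive value. The let-7 family, which marks differentiated cells and is held back by LIN28 in stem cells, had 9 of 9 members tested, 5 with a positive and 4 with a negative log2 fold change, and a median of 0.04. Its most abundant member, bta-let-7a-5p, averaged 26154 ± 7383 RPM at 3 years and 25496 ± 5950 RPM at 2 years (SD, n = 5 and 4), and its members ran from -0.47 for bta-miR-98-5p to 0.40 for bta-let-7e-5p. The miR-30 family had 6 of 6 members tested, 3 on each side of 0, and a median of 0.03, from -0.29 for bta-miR-30a-5p to 0.28 for bta-miR-30b-5p. With TMM factors from annotated entries the medians were -0.04 for let-7 and -0.03 for miR-30, and with the log10 total as a covariate -0.11 and -0.09, so these families have no direction that holds under every scaling.

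All 4 members of the miR-181 family had positive values, with a median of 0.28, from 0.06 ± 0.22 (SE) for bta-miR-181a-5p, the most abundant, to the 0.84 of bta-miR-181c-5p. However, bta-miR-181a-5p was at -0.03 with TMM factors from annotated entries, and the median was 0.04 with thinned libraries. The member bta-miR-181d-5p passed the minimum only through H5, aged 3 years, so it was admitted by the age at which it was high. The 3 members tested of the miR-29 family, which represses collagens and other matrix proteins in mammals, were also positive, with a median of 0.23. bta-miR-29c-3p was at 1323, 1402, 983, 1461 and 2092 RPM at 3 years, and at 1289, 1090, 667 and 937 RPM at 2 years, with a log2 fold change of 0.54 ± 0.30 (SE). bta-miR-29a-3p, the most abundant, had a log2 fold change of 0.20 ± 0.32 (SE). The clusters of miR-17 to miR-92, which promote proliferation and are induced by MYC, had 13 of 15 members tested, 9 with positive values, and a median of 0.23, from -0.27 for bta-miR-20b-5p to 0.57 for bta-miR-106a-5p. That median was -0.04 with the log10 total as a covariate and -0.03 without H3 and H4.

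The ruminant family of miR-2284 and miR-2285, a large group of related bovine hairpins with no well-known role, had 25 of 129 members tested and 124 with a read. Of the 25, 21 had a positive log2 fold change and 4 a negative one, with a median of 0.32, which ranged over the alternative settings from 0.12 with thinned libraries to 0.45 with the log10 total as a covariate, leaving out single cows aside. Members share sequence, and 2 of them, bta-miR-2284y-5p and bta-miR-2285av-5p, had nearly equal counts, so these are not 25 separate measurements. Some members, such as bta-miR-2284b-5p, bta-miR-2285bn-3p and bta-miR-2285ce-3p, passed the minimum only through cows aged 3 years. They could enter only because they were high at that age, so their positive values are no independent support. bta-miR-2284x-5p, the most abundant, was at 2575, 3025, 8343, 5670 and 3480 RPM at 3 years, and at 3541, 2893, 2591 and 3562 RPM at 2 years. H7 and H8 alone lie above the younger cows, and the log2 fold change was 0.55 ± 0.35 (SE). The extremes were bta-miR-2284b-5p at 1.003 ± 0.61 and bta-miR-2284j-5p at -0.34 ± 0.31 (SE).

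MicroRNAs studied for milk fat synthesis in ruminant mammary cells had 15 of 17 members tested, 8 with positive and 7 with negative values, and a median of 0.00, which ranged over the same settings from -0.19 with the log10 total as a covariate to 0.09 with library totals. The lowest was bta-miR-221-3p (-0.68 ± 0.49, SE) and the highest bta-miR-107-3p (0.28 ± 0.30, SE), with bta-miR-148a-3p the most abundant. bta-miR-27b-3p, which restrains lipid synthesis in adipocytes and mammary cells, averaged 36024 ± 7059 RPM at 3 years and 41002 ± 9385 RPM at 2 years. MicroRNAs linked to cell senescence and ageing in mammals had 9 of 10 members tested, 8 with positive values, and a median of 0.23. The 8 include the tested members of the miR-29 family given above, so the values of the lists are not separate. Of the 8, bta-miR-21-5p was at -0.02 with factors from annotated entries and bta-miR-29a-3p at -0.078 without H3 and H4. Among these bta-miR-34a-5p, a target of p53 that halts the cell cycle, was at 15.1, 19.9, 18.6, 17.9 and 34.5 RPM at 3 years, and at 20.8, 6.23, 14.9 and 9.81 RPM at 2 years. H1, aged 2 years, exceeds all older cows but H9, and the log2 fold change was 0.73 ± 0.45 (SE) with an edgeR adjusted p of 0.637. bta-miR-155-5p, an immune microRNA, had the lowest value of that list, -0.27 ± 0.40 (SE).

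**Figure D5:**
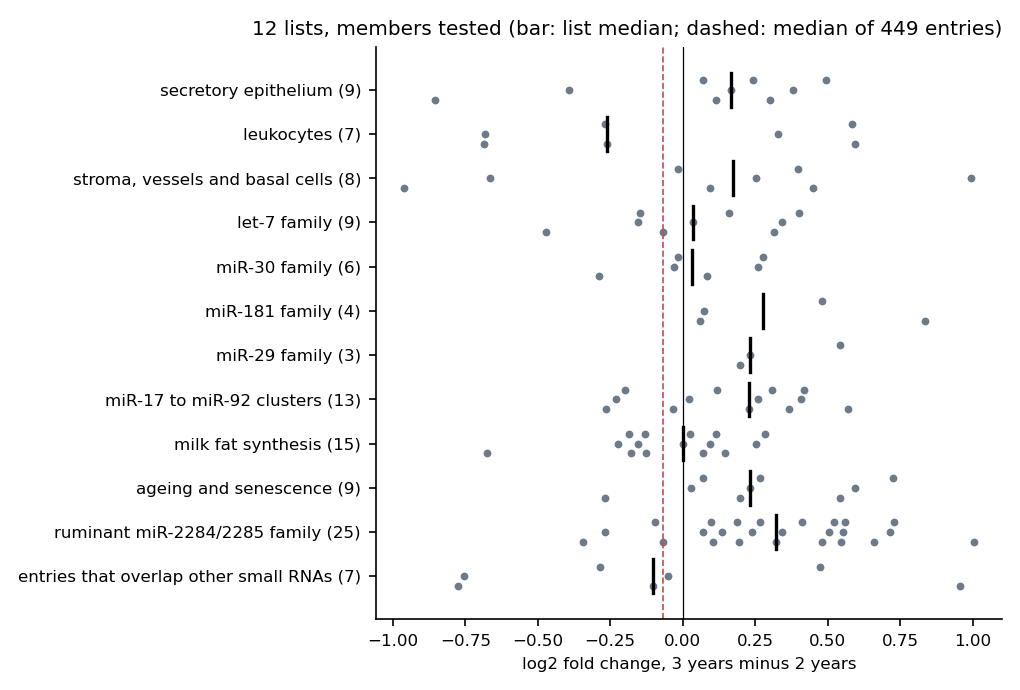
Log2 fold changes, 3 years minus 2 years (x), of the members tested in 12 lists of annotated microRNAs (rows, number tested in parentheses); black bars mark list medians and the dashed line the median of the 449 entries (-0.07). List medians lie between -0.26 for leukocytes and 0.32 for the ruminant family, and no point shown was called. The median of the 332 annotated entries was 0.07.

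The cell types that milk can hold were followed through lists of their microRNAs, summed per library as RPM of all reads. The 9 epithelial microRNAs tested (the miR-200 group, the miR-182 cluster and miR-375) had a median log2 fold change of 0.17, with 7 positive values, from -0.85 for bta-miR-183-5p to 0.50 for bta-miR-96-5p, and the median was 0.02 without H3 and H4 and 0.31 with library totals. Their sum was 49863 to 88593 RPM at 3 years and 45870 to 60553 RPM at 2 years, and none of the members was at 0 in every library. Leukocyte microRNAs had 7 of 8 members tested and a median of -0.26, which was -0.33 with factors from annotated entries, 0.15 with the log10 total as a covariate and 0.31 with quality weights. Their sum was 1134 to 1907 RPM at 3 years and 980 to 4384 RPM at 2 years.

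The highest leukocyte sum was that of H3, the shallowest library. bta-miR-223-3p, the main microRNA of granulocytes, was at 56.3, 196, 288, 188 and 52.6 RPM at 3 years, and at 40.2, 243, 691 and 39.9 RPM at 2 years. Cows of the same age differed by more than the age means, which were 156 ± 101 RPM at 3 years and 254 ± 307 RPM at 2 years (SD, n = 5 and 4). The log2 fold change was -0.69 ± 0.80 (SE). bta-miR-142-5p, the most abundant of the list, averaged 881 ± 463 RPM at 3 years and 1415 ± 934 RPM at 2 years (SD, n = 5 and 4), and bta-miR-146a-5p, induced by NF-kB, had the highest value of the list, 0.59 ± 0.41 (SE). The part of leukocytes in the age values of other entries was not tested.

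Red blood cell microRNAs were represented by bta-miR-486-5p, the 1 of 3 tested, with a log2 fold change of -0.01 ± 0.57 (SE), and the list summed to 59.4 to 270 RPM at 3 years and 50.8 to 245 RPM at 2 years. That sum was almost all bta-miR-486-5p, which averaged 133 ± 81.3 RPM at 3 years and 134 ± 116 RPM at 2 years (SD, n = 5 and 4). bta-miR-451-5p, not tested, was at 0.188, 0.849, 0, 1.59 and 0.707 RPM at 3 years, and at 3.08, 0.215, 0 and 0.654 RPM at 2 years. bta-miR-144-3p, an erythroid microRNA, was at 0.329 RPM in H8 and had no read in the other 8 cows of either age. Stromal, vessel and basal cell microRNAs had 8 of 15 members tested, 5 positive, and a median of 0.17, from -0.96 for bta-miR-100-5p to the 0.99 of bta-miR-143-3p. bta-miR-100-5p passed the minimum only through H4, aged 2 years, so it was admitted by the age at which it was high. The median of the list was -0.19 with the log10 total as a covariate, -0.04 with quality weights and 0.43 with library totals. The sum of the list was 2380 to 3676 RPM at 3 years and 2351 to 3899 RPM at 2 years. bta-miR-199a-5p was at 0 in every library. The other arm, bta-miR-199a-3p, had reads in every library, at 0.707 to 1.39 RPM at 3 years and 0.342 to 3.73 RPM at 2 years. The most abundant of the list, bta-miR-99a-5p, was at 1950, 1755, 645, 814 and 1219 RPM at 3 years, and at 2929, 843, 992 and 3330 RPM at 2 years.

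Names whose sequences match other small RNAs were followed apart. Of 9 such entries 7 were tested, 2 with positive and 5 with negative values, and a median of -0.10, which was -0.37 with thinned libraries, 0.02 with library totals and 0.07 with the log10 total as a covariate. bta-miR-2887-5p, which matches ribosomal RNA, had the lowest, -0.77 ± 0.50 (SE), and bta-miR-2478-3p the highest, 0.95 ± 0.47 (SE). bta-miR-1246-5p, a match to spliceosomal RNA in human, was at 229, 230, 396, 756 and 114 RPM at 3 years, and at 266, 74.7, 1206 and 148 RPM at 2 years, with H3 highest of all.

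More entries were seen at 3 years, where the libraries were also deeper. Of the 2038 entries with a read, 1429 were seen at both ages, 511 at 3 years only and 98 at 2 years only. Of those seen at 3 years only, 353 were in 1 library, and 3 were in every library of that age. The most abundant of the 511, Rum-bta-00214, had 46 reads, spread over 4 libraries. At the depth of the shallowest library, 722 ± 38.2 entries would be detected at 3 years and 693 ± 44 at 2 years (SD, n = 5 and 4), a difference with an exact two-sided permutation p of 0.317 and an adjusted p of 0.917.

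Measures of the milk as a whole also differed between the ages by less than among cows. The first 3 major entries together took 42.4% ± 2.96 of reads at 3 years and 44.1% ± 4.07 at 2 years (SD, n = 5 and 4; exact two-sided permutation p = 0.476, adjusted p = 0.917). The 18 major entries took 81.8% ± 2.3 at 3 years and 81.8% ± 1.29 at 2 years (exact two-sided permutation p = 0.889, adjusted p = 0.984). The effective number of entries was 28.4 ± 3.9 at 3 years and 26.9 ± 3.89 at 2 years (exact two-sided permutation p = 0.571, adjusted p = 0.917). In a principal component analysis of the 449 entries, the first component held 38.8% and the second 18.4% of the variance. Age accounted for 21.8% of the squared distances in that plane (one-sided exact permutation p = 0.183), with H2 and H3 at the high end of the first component (15.5 and 18.9), followed by H5 (7.4), and H6 and H7 at the low end (-11.5 and -11.6).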

How the data were processed

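Whole milk RNA was sequenced as TruSeq small RNA libraries on an Illumina instrument. The authors deposited raw, unnormalized read counts for each mature form. Base calling used bcl2fastq 2.17.1.14, adapters were trimmed with cutadapt, and miRDeep2 counted reads on the bosTau8 build. The lane of each library is not given in the sources used here. Entries sharing a name were numbered in file order. No microRNA sequence or genome was used, so neither sequences nor coordinates are given. In all 16 pairs of same-age libraries, chi-square was 166 to 1503.4 times its degrees of freedom, and no library repeated another.

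Age (3 years minus 2 years) was tested in the 9 Holstein libraries by the F test of edgeR 4.0.16 (R 4.3.3) after a quasi-likelihood fit with TMM scaling. P-values were adjusted over all entries tested (Benjamini-Hochberg), and entries under 0.05 were called. Entries entered when their largest TMM-normalized count exceeded 119, the threshold of the study's methods. Standard errors are the log2 fold change over the square root of F. Alternatives used limma 3.58.1, DESeq2 1.42.0, other scalings, filters, thinning and sets of libraries. The scripts were checked on simulated counts. Library measures were compared with exact permutation tests in scipy 1.17.1, Benjamini-Hochberg adjusted over 11. Log2 values for principal components used a prior count of 2. The text names the 10 smallest p in each direction with a read in every library of the higher group (given as ranked, since none was called), entries over 10000 RPM, and the extremes and most abundant member of each list described. Members, lists and tests were chosen with earlier results of these data known. Intervals cover the spread between these cows, and the limit of 3 reads covers counting error only.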

Additional observations from a re-analysis of the deposited data

Results flagged for a closer look

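In 7 of the 148 age groups of values examined, the highest or lowest cow lay far from the others of its age by Dixon's criterion, which chance meets in about 1 in 20 groups. At 3 years, H7 had 1.29 RPM of bta-chr22_21344_mt-3p against 0 to 0.141 RPM in the others, H5 had 153 RPM of bta-chr18_13413_mt-5p against 29.8 to 61.2 RPM, H9 had 34.5 RPM of bta-miR-34a-5p against 15.1 to 19.9 RPM, and H7 had 14.3 RPM of bta-miR-2284b-5p against 3.05 to 5.75 RPM. At 2 years, H2 had 34582 RPM of bta-chr20_18762_mt-3p against 2073 to 6139 RPM, and H3 had 1206 RPM of bta-miR-1246-5p against 74.7 to 266 RPM. H3 also had the lowest summed epithelial microRNAs, 45870 RPM against 58300 to 60553 RPM.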

How the results depend on the processing

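No paired analysis was possible because the age groups share no replicate number. No entry was called with voom and limma, RLE factors, library totals, TMM factors from annotated entries, filterByExpr, the minimum on raw counts, thinned libraries, the log10 total as a covariate, the spread of all 17 libraries, or without H3 and H4 together (chosen after seeing the data). Calls numbered 1 with voom and quality weights, 6 with DESeq2, 8 with no filter on 2038 entries, and 0 to 1 without each cow in turn. The cause was not tested.

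All 20 ranked entries kept their direction under every alternative that could be fitted, and 48 of the 63 named entries did so. The 20 were picked by the smallest p in these same cows, so their kept direction adds no independent support. The log2 fold changes that changed sign were, with voom and limma, -0.174 for bta-miR-141-3p, -0.006 for bta-let-7a-5p, 0.006 for bta-miR-30d-5p, 0.14 for bta-miR-223-3p, 0.208 for bta-miR-486-5p and 0.431 for bta-miR-1246-5p. With quality weights they were -0.067 for bta-miR-186-5p, -0.297 for bta-miR-141-3p, -0.132 for bta-let-7a-5p, 0.308 for bta-miR-223-3p, 0.144 for bta-miR-486-5p and 0.063 for bta-miR-1246-5p. With factors from annotated entries they were -0.032 for bta-miR-186-5p, -0.017 for bta-miR-21-5p, -0.028 for bta-miR-181a-5p, -0.04 for bta-let-7a-5p and 0.005 for bta-miR-486-5p. With thinned libraries they were -0.045 for bta-miR-186-5p and -0.104 for bta-miR-2284b-5p. With the total as a covariate they were -0.088 for bta-miR-186-5p, -0.019 for bta-miR-21-5p, -0.091 for bta-miR-181a-5p, -0.241 for bta-miR-141-3p, -0.198 for bta-let-7a-5p, 0.14 for bta-chr10_2883_mt-5p, -0.234 for bta-miR-375-3p, 0.717 for bta-miR-223-3p, 0.072 for bta-miR-2887-5p and 1.53 for bta-miR-1246-5p. Without H3 and H4 they were -0.127 for bta-miR-186-5p, -0.087 for bta-miR-181a-5p, -0.043 for bta-miR-141-3p, -0.033 for bta-let-7a-5p, 0.138 for bta-miR-223-3p, -0.078 for bta-miR-29a-3p and 1.02 for bta-miR-1246-5p. bta-miR-30d-5p became 0.026 with DESeq2 and with RLE factors and 0.077 with library totals, and bta-miR-486-5p 0.184 with library totals and 0.005 with all 17 libraries.

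Without each cow in turn, values that changed sign ran from -0.496 to 0.057 for bta-miR-26a-5p, -0.198 to 0.332 for bta-miR-186-5p, -0.044 to 0.274 for bta-miR-181a-5p, -0.131 to 0.322 for bta-miR-141-3p, -0.1 to 0.226 for bta-let-7a-5p, -0.176 to 0.231 for bta-miR-30d-5p, -0.048 to 0.441 for bta-miR-375-3p, -1.05 to 0.53 for bta-miR-223-3p, -0.361 to 0.807 for bta-miR-486-5p and -0.674 to 1.08 for bta-miR-1246-5p. For library measures the differences ran from -0.0516 to 0.0523 (logit) for the share of the 18 major entries, -0.159 to 0.231 (logit) for the abundant predicted pair, and on the log2 scale -0.588 to 0.132 for leukocytes, -0.111 to 0.638 for red blood cells and -0.123 to 0.12 for stroma. Untransformed, the pair's difference was -0.0702 percentage points, and thinned, that of stroma was 0.0044 (log2). List medians that moved beyond the spread among cows were that of leukocytes, 0.308 with quality weights and -0.465 to 0.298 without each cow, and, with thinned libraries, -0.124 for the miR-500 to miR-660 cluster and -0.369 for entries that overlap other small RNAs. Library totals moved the median of all entries from -0.07 to 0.03 and that of the predicted entries to -0.65. The depth of H3 limits entries under 5.59 TMM-normalized RPM.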
